A study of Gallus gallus with 28 samples.

Results

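A set of 7 genes that lie outside the well-known bundle and synapse sets of the hair cell was followed through the chicken basilar papilla after streptomycin. They are TMPRSS3, NELL1, SS2, SLC7A14, KCNAB1, SNCG and FAM70B, which make 7 of the 17684 features in the deposited table. They were chosen by their levels in these same libraries, as large and lasting falls in treated against control papillae, with no numeric threshold. Their treated against control values are therefore a description, given with no test. That holds too where treated and control samples do not overlap, and the share of all features with no such overlap was not counted. All 7 were above the filter on low values (2 or more samples at 1 RPKM or above), which their control samples alone met. SLC7A14, NELL1 and SS2 met it in treated samples too, and FAM70B, TMPRSS3, SNCG and KCNAB1 did not. RPKM is the reads of a gene scaled by its length and by the depth of the library, as computed by the authors.

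The basilar papilla is the hearing epithelium of the bird. Its hair cells turn sound into an electrical signal at an apical bundle of stereocilia and pass it on at ribbon synapses, and supporting cells surround them. Streptomycin is an aminoglycoside antibiotic that kills hair cells, and the series title names their regeneration, which birds, unlike mammals, achieve in the hearing organ. The 7 genes share no pathway. TMPRSS3 encodes a membrane-bound serine protease that is mutated in inherited human deafness and is needed for hair cell survival in mice. NELL1 encodes a secreted glycoprotein known for promoting bone formation in mice, and SS2 a somatostatin precursor, listed as SST7 in the RefSeq gene table with SS2 as a synonym. Somatostatins are secreted peptide hormones that act through G protein-coupled receptors. SLC7A14 encodes a lysosomal membrane protein of the cationic amino acid transporter family, KCNAB1 a cytoplasmic beta subunit of Shaker-type voltage-gated potassium channels, and SNCG the neuronal protein gamma-synuclein. FAM70B is the older human symbol of TMEM255B, a predicted membrane protein of little known function.

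Papillae of Gallus gallus were dissected and kept in culture. The labels give 15 samples as treated with streptomycin and 13 as controls with no treatment. Per the labels, exposure lasted 24 h and was followed by recovery. The 8 labelled times were 0, 24, 48, 72, 96, 120, 144 and 168 h. Of the 16 groups of treatment and time, 12 held 2 samples and 4 held 1, namely controls at 72, 96 and 120 h and treated at 96 h. Age, strain, dose and the number of birds behind a sample are not given in the labels, nor whether the samples of a group came from separate birds, so p-values cover the spread among these libraries alone, which may be technical. Libraries held 16.48 to 38.17 M alignments (median 19.85 M). The table holds no read counts, and intervals for counting error could not be computed. For TMPRSS3 and SS2 the low values, multiplied by the library's alignments, moved in even steps. A step was the lowest such product above 0 for that gene, so this value counts as whole by definition. Of their values under 13 steps, 15 of 15 for TMPRSS3 and 14 of 14 for SS2 lay within 0.2 of a whole number of steps. On that scale treated libraries held 1 to 10.99 steps of TMPRSS3 against 76.7 to 775 in controls, and 0 to 11.8 steps of SS2 against 17.1 to 362. Treated levels of TMPRSS3 and SS2 thus rest on few reads. Fewer low values lay near a whole step for KCNAB1 (10 of 13), SLC7A14 (11 of 17), NELL1 (9 of 15), FAM70B (7 of 15) and SNCG (4 of 10). No steps are given for those genes.

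Fewer cells of a type and less RNA per cell cannot be told apart in whole papillae. Markers of hair cells were present in controls and low after treatment. The summed level of 25 hair bundle genes was 312 to 482 RPKM in the 6 controls of 0 to 48 h and 127 to 176 RPKM in the 6 treated samples of those times. That of 14 hair cell synapse genes was 115 to 197 against 8.05 to 13.1 RPKM. TMIE, a gene of the transduction complex, was listed at 0 in all 6 of these treated samples. The neuron markers, 10 genes in the table, were lower in sum too. They went from 192 to 249.9 RPKM in those controls to 46.8 to 99.2 RPKM in the treated samples. Most of that sum was GAP43 (means of 173 and 55.6 RPKM), and of the 7 tested at those times 5 were lower and 0 higher. SNAP25, among the 5, is on the hair cell synapse list too. The part of neurons in the falls of SNCG and KCNAB1, which neurons also express, was not tested. Summed glia markers (10 genes) were 114 to 155 RPKM in those controls against 153 to 227 RPKM in treated samples, mostly through SOX10 (means of 64.1 and 124 RPKM), while of the 9 tested at those times 1 was higher and 2 lower. Over all times 6 of 11 tested mesenchyme markers, 6 of 9 duct epithelium markers and 10 of 13 leukocyte markers were lower in treated samples and 0 higher. Supporting cell markers mostly went the other way, with 9 of 14 tested higher and 2 lower. Of all features, 21.7% were lower and 20.2% higher over all times, and 23.5% lower and 27.6% higher at 0 to 48 h. At 120 to 168 h the neuron sums overlapped, at 68.9 to 85.2 RPKM in controls and 64.1 to 99.4 RPKM in treated samples. GAP43 again made up most of them (means of 50.4 and 65.6 RPKM). Of the 7 neuron genes tested, 3 were still lower at those times and 0 higher, beside 15.1% and 4.31% of all features.

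TMPRSS3, the protease gene, was a mid-level transcript of the control papilla and close to 0 after treatment. TMPRSS3 in controls read 21.4 and 17.2 at 0 h, 14.1 and 16.6 at 24 h, 25.9 and 21.00 at 48 h, 28.04 at 72 h, 22.4 at 96 h, 12.98 at 120 h, 9.31 and 10.9 at 144 h and 6.35 and 9.56 at 168 h (RPKM, as for all values of single samples here). Treated samples read 0.142 and 0.131 at 0 h, 0.109 and 0.144 at 24 h, 0.0609 and 0.0698 at 48 h, 0.327 and 0.112 at 72 h, 0.0705 at 96 h, 0.591 and 0.374 at 120 h, 0.254 and 0.8699 at 144 h and 0.495 and 0.351 at 168 h. No treated library came within reach of a control, as the lowest control held 6.35 and the highest treated sample 0.870 RPKM. Within the treated arm the 7 samples of 0 to 48 h and 96 h lay at 0.144 RPKM or less. The 6 samples of 120 to 168 h lay at 0.254 RPKM or more, and those of 72 h (0.327 and 0.112 RPKM) fell in both ranges. How many of all features had treated times apart in this way was not counted.

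NELL1, the secreted glycoprotein gene, ranged from 0.243 to 1.36 RPKM after treatment. Control samples of NELL1 read 27.9 and 26.5 at 0 h, 30.2 and 24.00 at 24 h, 36.6 and 28.9 at 48 h, 37.6 at 72 h, 25.3 at 96 h, 22.5 at 120 h, 12.8 and 13.02 at 144 h and 11.2 and 10.02 at 168 h. In treated papillae its levels were 0.845 and 0.793 at 0 h, 0.4499 and 0.348 at 24 h, 0.736 and 0.676 at 48 h, 0.949 and 0.243 at 72 h, 1.36 at 96 h, 1.25 and 0.813 at 120 h, 1.15 and 0.918 at 144 h and 1.04 and 1.09 at 168 h. Arms did not overlap, with 10.02 RPKM in the lowest control and 1.36 RPKM in the highest treated sample, that of 96 h.

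SS2, the somatostatin gene, had uneven controls. Its control levels were 34.9 and 40.1 at 0 h, 32.1 and 46.2 at 24 h, 34.2 and 11.6 at 48 h, 38.5 at 72 h, 52.99 at 96 h, 15.5 at 120 h, 6.51 and 11.5 at 144 h and 4.16 and 8.64 at 168 h. Its pair at 48 h was far apart, and the highest control was that of 96 h. Treated papillae held 1.66 and 0.961 at 0 h, 0.481 and 0.844 at 24 h, 1.43 and 0.409 at 48 h, 0.547 and 1.15 at 72 h, 1.03 at 96 h, 0.866 and 0.7298 at 120 h, 0.248 and 0 at 144 h and 0.242 and 0.411 at 168 h. Arms stood apart by the lowest control at 4.16 RPKM and the highest treated sample at 1.66 RPKM.

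SLC7A14, the lysosomal transporter gene, had the highest treated mean of the 7 genes over all times, though not at 24 h. SLC7A14 in control papillae read 51.9 and 50.7 at 0 h, 31.1 and 31.99 at 24 h, 45.6 and 41.1 at 48 h, 49.9 at 72 h, 25.96 at 96 h, 13.7 at 120 h, 7.39 and 7.798 at 144 h and 6.55 and 5.57 at 168 h. After streptomycin it read 2.89 and 0.952 at 0 h, 0.759 and 0.496 at 24 h, 0.882 and 1.603 at 48 h, 2.704 and 0.944 at 72 h, 2.42 at 96 h, 2.59 and 0.9395 at 120 h, 1.33 and 1.62 at 144 h and 1.29 and 0.975 at 168 h. Treated sample 1 lay well above sample 2 at 0, 72 and 120 h, so its course there is poorly set. The lowest control held 5.57 RPKM, and the highest treated sample 2.89 RPKM, a ratio of 1.93 that was the smallest of the 7. In the RefSeq table CLDN11 overlaps SLC7A14, and the strand of the libraries is not given. CLDN11 levels had a median of 2.83 RPKM (1.197 to 4.945) in controls and 2.06 RPKM (0.450 to 8.436) in treated samples. Its treated levels thus reached above those of SLC7A14, and its part in the treated SLC7A14 values was not tested.

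KCNAB1, the potassium channel subunit gene, had the lowest treated level at 0 to 48 h. KCNAB1 control samples read 36.5 and 39.8 at 0 h, 26.6 and 28.3 at 24 h, 34.5 and 32.5 at 48 h, 23.3 at 72 h, 11.2 at 96 h, 8.48 at 120 h, 3.28 and 3.69 at 144 h and 5.697 and 2.42 at 168 h. Those exposed to streptomycin read 0.136 and 0.0603 at 0 h, 0.157 and 0.0344 at 24 h, 0.0585 and 0.0671 at 48 h, 0.156 and 0.154 at 72 h, 0.303 at 96 h, 0.467 and 0.286 at 120 h, 0.284 and 0.227 at 144 h and 0.787 and 0.323 at 168 h. All 6 treated samples of 0 to 48 h lay at 0.157 RPKM or less, while all 6 of 120 to 168 h lay at 0.227 RPKM or more. These levels are low, and how many of all features had treated windows apart was not counted. The lowest control, of 168 h, held 2.42 RPKM and the highest treated sample, also of 168 h, 0.787 RPKM.

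SNCG, the gamma-synuclein gene, was listed at 0 in 5 of the 15 treated libraries. SNCG levels in controls were 62.4 and 56.2 at 0 h, 34.7 and 40.00 at 24 h, 50.1 and 28.2 at 48 h, 52.7 at 72 h, 40.4 at 96 h, 12.9 at 120 h, 6.56 and 9.73 at 144 h and 4.48 and 7.75 at 168 h. Treated samples gave 0.223 and 0.929 at 0 h, 0.165 and 0.6800 at 24 h, 0.575 and 0.989 at 48 h, 0.221 and 0.264 at 72 h, 0 at 96 h, 0.571 and 0.775 at 120 h, 0 and 0 at 144 h and 0 and 0 at 168 h. The zeros fell at 96, 144 and 168 h, while 120 h stood between them with values like those of 48 h. None of GAPDH, EEF1A1, HPRT1 and TBP, genes in wide use by cells, was at 0 in any library (lowest TBP value 9.68 RPKM). These genes lie far above SNCG in treated samples, so they cannot show whether its zeros mean absence or a low level missed. The 5 libraries at 0 held 16.48 to 19.66 M alignments, while sample 1 of treated 120 h, at 19.01 M, was not at 0. MMRN2 overlaps SNCG in the RefSeq table, and its median was 0.358 RPKM in controls and 0.156 RPKM in treated samples.

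FAM70B had the highest control level of the 7 genes at 0 to 48 h. FAM70B control samples read 82.8 and 88.7 at 0 h, 69.2 and 70.8 at 24 h, 79.01 and 62.6 at 48 h, 69.1 at 72 h, 47.4 at 96 h, 31.3 at 120 h, 15.2 and 20.3 at 144 h and 14.3 and 13.6 at 168 h. Its treated samples read 1.59 and 0.862 at 0 h, 0.359 and 0.2701 at 24 h, 0.343 and 0.262 at 48 h, 0.3504 and 0.157 at 72 h, 0.529 at 96 h, 0.416 and 0.526 at 120 h, 0.556 and 0.964 at 144 h and 0.464 and 0.592 at 168 h. Both samples of 0 h, at the end of the exposure, were above the 6 samples of 24 to 72 h. The share of all features with that order was not counted. The lowest control held 13.6 RPKM against 1.59 RPKM in the highest treated sample.

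**Figure D1:**
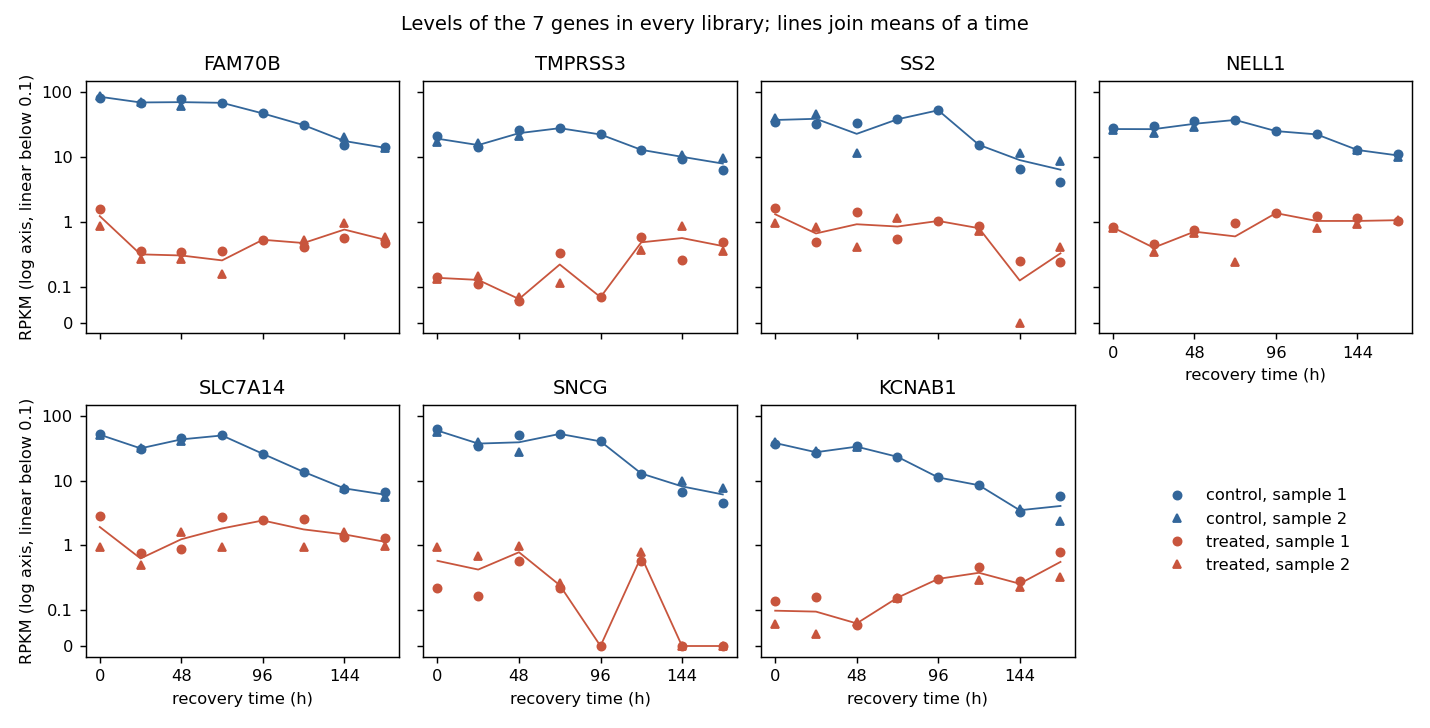
RPKM of each of the 7 genes (y axis, logarithmic, linear below 0.1) against labelled recovery time (x axis, h) for 13 control samples (blue) and 15 treated samples (red), with circles for sample 1, triangles for sample 2 and lines through the means. In every panel the lowest control lies above the highest treated sample, and the control line is lowest at 144 or 168 h. The genes were chosen for such falls, and the share of all features set apart in this way was not counted.

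Between these genes, the share of the control level left in treated papillae differed and moved with time. Over 0 to 48 h the treated mean was 0.259% of the control mean for KCNAB1, 0.565% for TMPRSS3, 0.814% for FAM70B, 1.31% for SNCG, 2.21% for NELL1, 2.90% for SS2 and 3.003% for SLC7A14. OTOF, the otoferlin gene of synaptic vesicle release, and MYO7A, a bundle motor gene, had 1.76% and 4.79% left. TMC2, a mechanotransduction channel gene, and SLC17A8, which encodes the transporter that loads glutamate into hair cell vesicles, had 0.374% and 0.841% left. The 7 shares lay among those of these known hair cell genes, except that of KCNAB1, which was lower than all 4. Over 120 to 168 h the shares were 2.71% for SNCG, 3.10% for FAM70B, 4.497% for SS2, 4.98% for TMPRSS3, 7.50% for NELL1, 8.39% for KCNAB1 and 17.8% for SLC7A14. TMC2 had 1.99% left, below all 7, SLC17A8 3.69%, OTOF 21.4% and MYO7A 30.8%. These shares reflect how the genes were chosen.

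Lower controls went into the later shares of all 7 genes, and treated levels were higher late for some of them. Mean FAM70B in treated samples was 0.615 ± 0.5295 RPKM (SD, n = 6) at 0 to 48 h and 0.586 ± 0.196 RPKM (SD, n = 6) at 120 to 168 h. Treated KCNAB1 went from 0.0856 ± 0.0489 to 0.396 ± 0.208 RPKM (SD, n = 6 each) and treated TMPRSS3 from 0.1095 ± 0.0364 to 0.489 ± 0.2205 RPKM (SD, n = 6 each). Treated NELL1 went from 0.641 ± 0.199 to 1.04 ± 0.158 RPKM and treated SLC7A14 from 1.26 ± 0.877 to 1.46 ± 0.608 RPKM (SD, n = 6 each). SS2 and SNCG went the other way, with 4 of 6 late treated SNCG libraries and 1 of 6 for SS2 listed at 0. Lasting falls were part of the choice of the genes, so these courses were not tested.

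**Figure D2:**
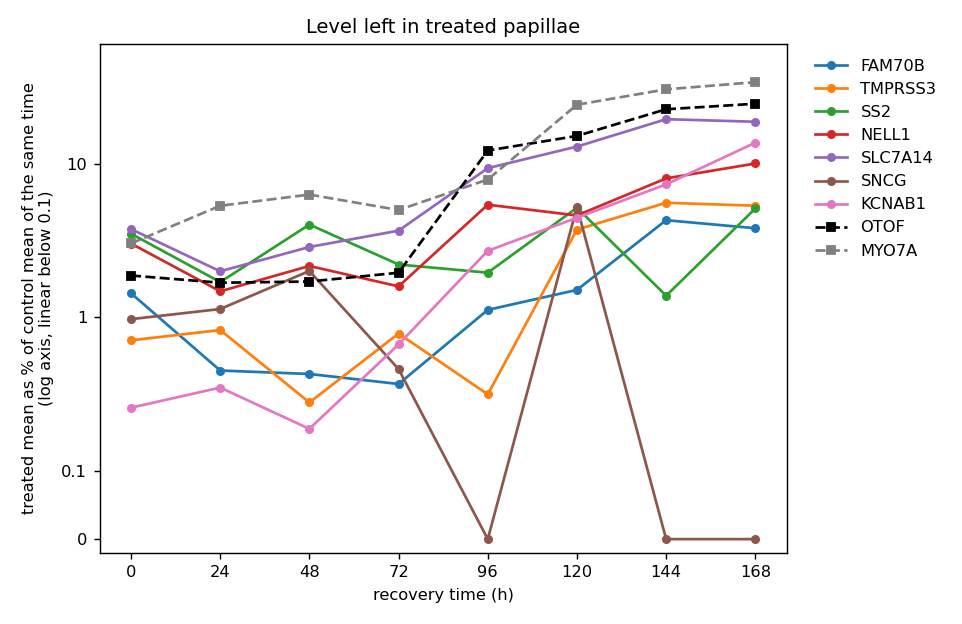
Treated mean as a percent of the control mean of the same time (y axis, logarithmic, linear below 0.1) against labelled recovery time (x axis, h) for the 7 genes (solid lines) and for OTOF and MYO7A (dashed). SNCG is at 0 at 96, 144 and 168 h, while SLC7A14 reaches 18.7% at 168 h, OTOF 24.5% and MYO7A 33.9%.

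For reference, fitted differences are given as log2(RPKM + 1), a scale on which a fold between small RPKM values looks smaller than it is. Treated minus control over all times, with each time set against its own control, ranked the 7 genes at places 2 (FAM70B), 3 (SNCG), 6 (TMPRSS3), 7 (SS2), 8 (NELL1), 10 (KCNAB1) and 13 (SLC7A14) among the falls of the 12195 features tested. At 0 to 48 h the places were 2 to 17 and at 120 to 168 h 2 to 19. These places follow from how the genes were chosen. Of all features, 21.7% were lower and 20.2% higher at a limma adjusted p under 0.05 over all times.

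Control papillae alone show whether levels held in culture without streptomycin. The choice of the 7 genes drew on these control values too, so their changes are a description with no test. All 7 were lower at 120 to 168 h (n = 5) than at 0 to 48 h (n = 6), and of the 12195 features 20.3% were lower and 28.7% higher there (limma, Benjamini-Hochberg adjusted p under 0.05). KCNAB1 differed most on the log2 scale, going from 33.03 ± 4.96 to 4.71 ± 2.43 RPKM (SD, as for the means that follow), a fitted log2 difference of -2.52 ± 0.14 (SE). SNCG went from 45.3 ± 13.2 to 8.28 ± 3.201 RPKM (-2.23 ± 0.18) and SLC7A14 from 42.1 ± 9.02 to 8.197 ± 3.18 RPKM (-2.14 ± 0.20). FAM70B went from 75.5 ± 9.68 to 18.9 ± 7.396 RPKM (-1.87 ± 0.12). SS2 went from 33.2 ± 11.7 to 9.25 ± 4.404 RPKM (-1.61 ± 0.25). The smaller differences were those of NELL1, from 29.01 ± 4.28 to 13.9 ± 4.95 RPKM (-0.93 ± 0.12), and TMPRSS3, from 19.4 ± 4.24 to 9.83 ± 2.43 RPKM (-0.85 ± 0.13).

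Late controls thus kept 14.3% of the early mean for KCNAB1, 18.3% for SNCG, 19.5% for SLC7A14, 25.1% for FAM70B, 27.9% for SS2, 47.9% for NELL1 and 50.7% for TMPRSS3. Every early control lay above every late control for 6 of the 7 genes, a pattern held by 9.45% of all features. SS2 was the exception, since its second sample of 48 h (11.6 RPKM) lay under the control of 120 h (15.5 RPKM). Within sample number 1 (3 early and 3 late controls) the log2 change of means ran from -1.03 (NELL1) to -2.55 (SNCG). Within number 2 (3 early and 2 late) it ran from -0.77 (TMPRSS3) to -3.10 (KCNAB1). All 14 values were below 0.

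Hair cell genes and other markers moved in the same controls. In the hair bundle list 21 of 25 tested genes were lower and 0 higher, with a median of -1.14, and in the synapse list 12 of 13 were lower and 0 higher (median -0.86), beside a median of 0.07 over all features tested. MYO7A fell by 1.03, TMC2 by 1.65 and OTOF by 1.81. In the neuron list 4 of 7 tested genes were lower and 1 higher. The neurofilament gene NEFM, at -2.43 ± 0.11, lay between SNCG and KCNAB1. Summed levels from early to late controls went from 192 to 249.9 down to 68.9 to 85.2 RPKM for neuron markers, from 1014 to 2203 down to 209 to 324 RPKM for supporting cell markers (15 genes) and from 65.8 to 182 up to 344 to 447 RPKM for leukocyte markers. Early controls were also more deeply sequenced, at 19.29 to 35.23 M alignments against 16.69 to 19.45 M. The supporting cell sum of early controls was mostly TECTB, a tectorial membrane gene, at 1276 RPKM in early and 43.04 RPKM in late controls (means), and 8 of the 14 tested genes of that list were lower and 2 higher. Of the leukocyte list 12 of 13 were higher and 0 lower, and of the mesenchyme list 7 of 11 were higher and 0 lower. The part of cell makeup and depth in the lower late control levels of the 7 genes was not tested.

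**Figure D3:**
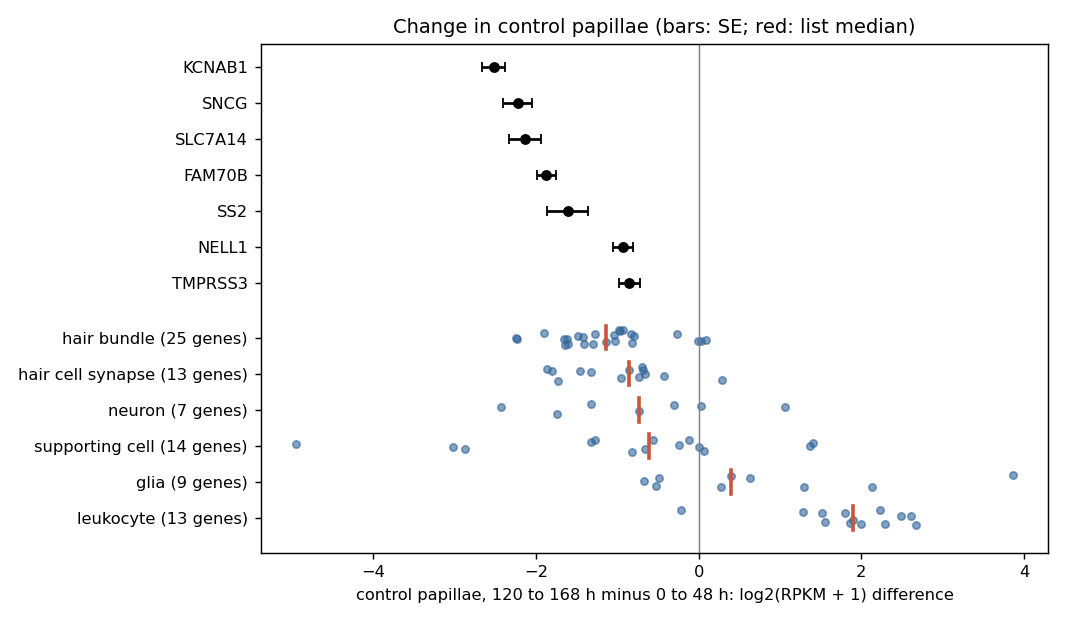
Difference of log2(RPKM + 1) between late (120 to 168 h) and early (0 to 48 h) control papillae (x axis) for the 7 genes (black, bars are SE) and for the tested genes of 6 marker lists (blue points, red bar at the list median). KCNAB1, SNCG and SLC7A14 lie past -2, while NELL1 and TMPRSS3 lie near the hair cell synapse median of -0.86.

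Which genes shared the control pattern was described by Pearson's r of log2(RPKM + 1) over the 13 control samples, which share the time course and depth, with no test. The 21 pairs among the 7 genes had r from 0.736 to 0.985. FAM70B was most like ELMOD1 (0.994), TMPRSS7 (0.988) and CABP1 (0.988), a calcium-binding protein gene. TMPRSS3 was most like MYO7A (0.936), FBXO41 (0.935) and KCNAB2 (0.933). SS2 had TMPRSS7 (0.872), the unconventional myosin gene MYO1H (0.869) and CACNA1D (0.860), the calcium channel gene of the ribbon synapse. For NELL1 the closest were FAM149A (0.977), SLC34A2 (0.964), a phosphate transporter gene, and SH2D4B (0.964). SLC7A14 was most like NEFM (0.993), SH2D4B (0.989) and SLC34A2 (0.988). SNCG had GAS2L3 (0.976), MYO1H (0.972) and WASF1 (0.967), and KCNAB1 had TMTC1 (0.992), the endocytosis gene AMPH (0.991) and CERKL (0.985). Over 37 genes of the bundle and synapse lists the median r was 0.751 (SS2) to 0.946 (SLC7A14). Over 6 neuron markers it was 0.531 (SS2) to 0.736 (SLC7A14), over 14 supporting cell markers 0.248 (TMPRSS3) to 0.487 (SNCG), and over all 11269 features compared -0.150 to -0.112. Not every bundle or synapse gene was alike, as the lowest r with a gene of those lists ran from -0.602 (NELL1) to -0.285 (SS2).

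Relatives and known partners of the 7 genes were listed by family or function and tested, though the lists were drawn up with earlier results of these data known. Of 71 symbols listed, 54 were in the table and 40 passed the filter. Over all times 19 of the 40 were lower and 6 higher in treated samples, with a median log2 difference of -0.23 beside 0.01 over all features, of which 21.7% were lower and 20.2% higher. At 0 to 48 h 24 were lower and 5 higher, where 23.5% of all features were lower and 27.6% higher. At 120 to 168 h 8 were lower and 2 higher, where the same shares were 15.1% and 4.31%.

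Among the relatives, TMPRSS7 and KCNAB2 fell most. TMPRSS7, a membrane serine protease gene like TMPRSS3, stood at 2.43 ± 0.756 RPKM (SD, n = 15) in treated and 32.6 ± 13.5 RPKM (SD, n = 13) in control samples (log2 difference -3.20 ± 0.16, limma adjusted p = 3.49e-13). Its treated samples ranged from 1.37 to 3.62 RPKM and its controls from 14.3 to 49.98 RPKM. KCNAB2, the sister beta subunit of KCNAB1, stood at 1.68 ± 0.804 against 14.5 ± 7.69 RPKM (-2.44 ± 0.22, limma adjusted p = 7.68e-09), from 0.506 to 3.25 RPKM in treated and 5.37 to 25.4 RPKM in control samples. Both fell in controls with time, TMPRSS7 by 1.18 and KCNAB2 by 1.30. Other serine protease genes went either way, as TMPRSS4 (-0.96 ± 0.15, limma adjusted p = 1.53e-05) was lower, while ST14, the matriptase gene (0.62 ± 0.09, limma adjusted p = 1.40e-05), and TMPRSS13 (0.43 ± 0.12, limma adjusted p = 0.00694) were higher.

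Relatives of the other genes moved less. SNCB, a relative of SNCG that encodes beta-synuclein, stood at 6.46 ± 2.32 RPKM (SD, n = 15) in treated and 5.58 ± 1.89 RPKM (SD, n = 13) in control samples and did not pass (0.16 ± 0.13, limma adjusted p = 0.339). FAM70A, the sister gene of FAM70B, did not pass over all times (-0.20 ± 0.14, limma adjusted p = 0.2496) but was lower at 0 to 48 h (-0.77 ± 0.11, limma adjusted p = 2.00e-05), at 12.9 ± 2.12 against 22.9 ± 4.84 RPKM (SD, n = 6 each). NELL2, the sister gene of NELL1, was lower over all times (-0.49 ± 0.13, limma adjusted p = 0.00474), and in controls it rose (1.37 ± 0.17, limma adjusted p = 3.54e-06) where NELL1 was lower. Of 7 tested SLC7 genes, SLC7A5 (-0.48 ± 0.18, limma adjusted p = 0.0357) and SLC7A6 (-0.36 ± 0.09, limma adjusted p = 0.00239), both amino acid exchanger genes, were lower. SLC7A10 was higher (0.24 ± 0.10, limma adjusted p = 0.0483), which ended with a replicate block. SLC7A10 met the filter through treated samples alone (highest control value 0.697 RPKM). The SLC7A5 call ended without any 1 of 9 libraries and the SLC7A10 call without any 1 of 17. At 0 to 48 h SLC7A1 (-0.61) and SLC7A11 (-0.49) were lower as well, the latter a call that ended without any 1 of 17 libraries. In controls over time, 6 of the 7 SLC7 relatives rose and 0 fell, where SLC7A14 was lower. SST, the other somatostatin gene in the table, was listed at 0 in all 28 samples.

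Partners of the 7 genes went either way. Over all times 12 of 22 tested were lower and 3 higher, beside 21.7% and 20.2% of all features. Of genes that process or receive somatostatin, PCSK2, the prohormone convertase gene of secretory granules, stood at 0.552 ± 0.390 RPKM (SD, n = 15) against 12.6 ± 7.50 RPKM (SD, n = 13; -2.94 ± 0.23, limma adjusted p = 8.15e-10). CPE, the carboxypeptidase gene of the same granules, was lower at 0 to 48 h (-1.29 ± 0.16, limma adjusted p = 3.37e-06) and not at 120 to 168 h (0.17 ± 0.17, limma adjusted p = 0.515). SSTR1 was the sole somatostatin receptor gene of 5 to pass the filter, and it was lower at 0 to 48 h (-0.54 ± 0.15, limma adjusted p = 0.00711) and higher at 120 to 168 h (0.61 ± 0.17, limma adjusted p = 0.0171), a late call that ended without sample 1 of treated 144 h. Of 10 voltage-gated potassium channel alpha subunit genes tested beside KCNAB1, 6 were lower and 3 higher over all times. For all features those shares were 21.7% and 20.2%. KCNA10, KCNA2, KCNA3, KCNA4 and KCNB2, all lower, met the filter on low values through control samples alone. Their highest treated values were 0.219, 0.512, 0.611, 0.584 and 0.409 RPKM. The filter thus favoured falls among them, which limits what their calls and this count show. At 120 to 168 h KCNA2 alone of the 10 was lower and KCND2 alone higher, beside 15.1% and 4.31% of all features. KCNA10 went from 1.13 ± 0.912 RPKM (SD, n = 13) in controls to 0.0963 ± 0.0863 RPKM (SD, n = 15) in treated samples (-0.84 ± 0.14, limma adjusted p = 4.03e-05), and KCNA2 gave -0.74 ± 0.10 (limma adjusted p = 1.75e-06), while KCND2 was higher (0.57 ± 0.14, limma adjusted p = 0.00254). Smaller falls were those of KCNB2 (-0.56), KCNA4 (-0.44), KCNA1 (-0.41) and KCNA3 (-0.40), and smaller rises those of KCNA5 (0.37) and KCNA6 (0.28), the last a call that ended without any 1 of 11 libraries. KCNMA1, the large-conductance calcium-activated potassium channel gene whose protein is reduced in hair cells of Tmprss3 mutant mice, stood at 0.764 ± 0.237 against 3.25 ± 1.38 RPKM (-1.22 ± 0.13, limma adjusted p = 8.94e-08). KCNMA1 is on the hair cell synapse list too, so its fall is counted in both places. SCNN1A, a subunit gene of the epithelial sodium channel that TMPRSS3 can activate in frog oocytes, was lower too (-0.64 ± 0.17, limma adjusted p = 0.00494). The SCNN1A difference was -1.25 ± 0.18 at 0 to 48 h (limma adjusted p = 2.29e-05). At 120 to 168 h it did not pass (-0.31 ± 0.20, limma adjusted p = 0.288). SCNN1B, another subunit gene, was lower at 0 to 48 h (-0.56 ± 0.23, limma adjusted p = 0.0491), which ended without any 1 of 15 libraries. Of the NELL1 list, RUNX2, a transcription factor of bone (-0.76 ± 0.24, limma adjusted p = 0.0142), and ITGB1, an integrin gene (-0.24 ± 0.08, limma adjusted p = 0.0132), were lower, beside the mesenchyme markers counted above. The part of such cells in these falls was not tested.

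Of these 40 genes, 17 changed in their treated minus control difference between the early and the late window (15 upward and 2 downward). Of all 12195 features tested, 34.5% changed in either direction, 1539 upward and 2666 downward. KCNAB2 went from -3.38 ± 0.12 to -1.32 ± 0.12 and TMPRSS7 from -3.66 ± 0.13 to -2.54 ± 0.14. Such a change can come from either arm. Mean TMPRSS7 was 2.57 RPKM early and 2.40 RPKM late in treated samples, and 43.2 and 17.6 RPKM in controls. Mean KCNAB2 was 0.904 and 2.24 RPKM in treated samples, and 19.3 and 6.78 RPKM in controls. Side by side, KCNAB1 went from -4.96 ± 0.13 to -2.09 ± 0.14 and TMPRSS3 from -4.17 ± 0.12 to -2.91 ± 0.13 (descriptions, with no test).

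**Figure D4:**
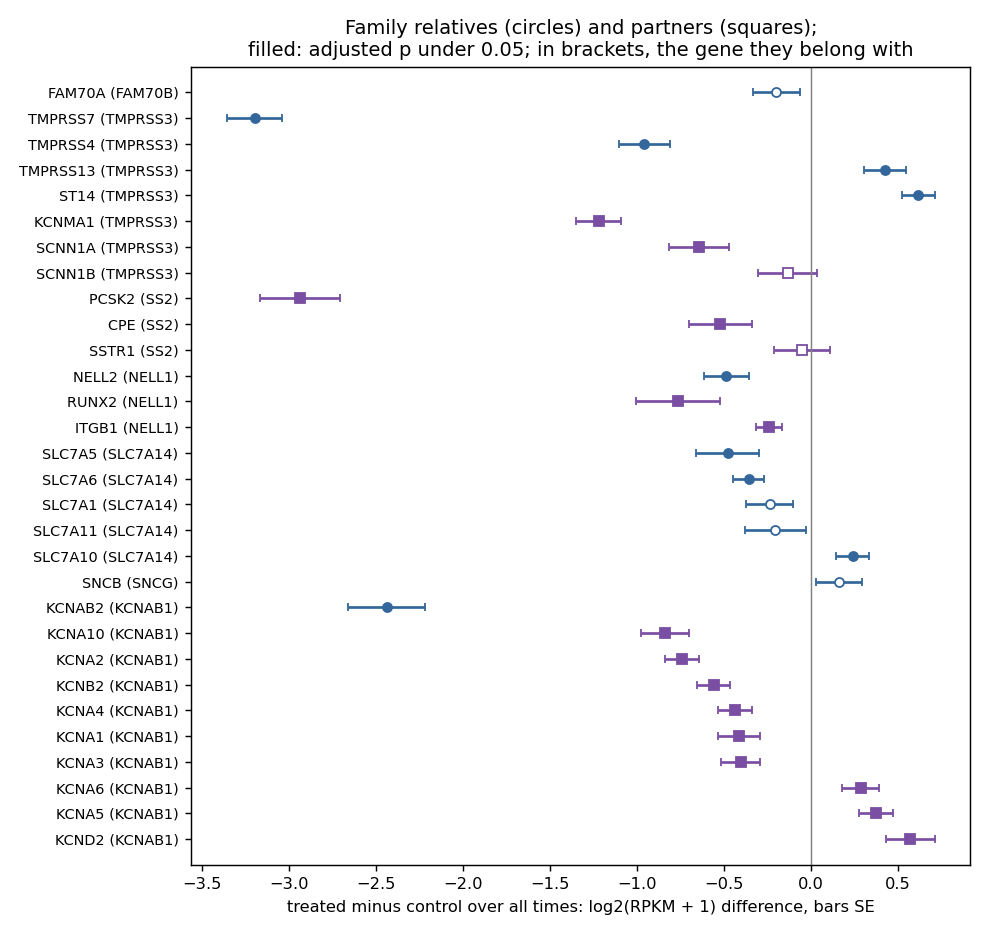
Treated minus control difference of log2(RPKM + 1) over all times (x axis, bars are SE) for named family relatives (circles) and partners (squares) of the 7 genes, filled where the adjusted p was under 0.05. TMPRSS7 (-3.20), PCSK2 (-2.94) and KCNAB2 (-2.44) lie farthest to the left, while the SNCB and FAM70A values did not pass.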

How the data were processed

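RNA was sequenced from 28 samples of basilar papilla, 15 treated and 13 control. The authors deposited 1 table of RPKM values for 17684 features, with the alignments of each library, and its 4 columns that match no sample were not used. Per the submitters' processing notes the tools were TopHat 1.4.0 and Partek 6.6, listed with no roles. Genome build, annotation and strand were not given in the sources used here. Positions and sequences are therefore left out. Samples were grouped by title. The 12195 features that reached 1 RPKM in 2 or more libraries were fitted as log2(RPKM + 1) with limma 3.58.1 in R 4.3.3 (intensity trend, two-sided), with Benjamini-Hochberg adjustment over all features tested and a threshold of 0.05. The comparison over all times was fitted with an effect of time plus an effect of treatment (19 residual degrees of freedom). Windows and controls were contrasts in a model with 1 mean per group (12 residual degrees of freedom), so that the only sample of a group is taken to vary as other groups do. The fit was checked on simulated data.

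The 7 genes and the lists of markers, relatives and partners were chosen with earlier results of these data known. No p-value is given for the 7 genes, in controls either, since their choice used all 28 samples. Lists were matched by symbol, and 1 gene counted among the relatives is not reported here by name or value. Named genes are the 7, relatives and partners that passed in any window, a few followed whether they passed or not, and for each of the 7 the 3 features with a symbol in the RefSeq gene table (GRCg7b, names only), and a control mean of at least 1 RPKM, most like it over controls.

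Samples with bs2 in the title were numbered 2 and all others 1. Samples numbered 1 and 2 deviated together. The gap from sample 1 to sample 2 was taken for each gene in treated and in control papillae, and the 2 sets were correlated. Their r was 0.307 for 0 h, 0.291 for 24 h, 0.105 for 48 h, 0.478 for 144 h and 0.409 for 168 h. The main fits nonetheless held no term for the sample number. Sample number entered only through the replicate block, an alternative setting that gives all samples numbered 2 a common shift. The block does not pair treated with control samples of the same time, and such pairing was not modelled. Other settings tried were a replicate block, median-of-ratios rescaling of RPKM, a pseudocount of 0.1, no filter on low values, no intensity trend, only controls in the fit, a narrower window, an equal-weight mean of times and leaving out each library.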

Additional observations from a re-analysis of the deposited data

Results flagged for a closer look

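Treated minus control differences of the 16 relatives and partners named here changed from 0 to 48 h to 120 to 168 h by the test of the difference itself (limma adjusted p under 0.05), and values below are late minus early on the scale of log2(RPKM + 1). Larger changes upward were those of KCNAB2 2.06, PCSK2 1.99, CPE 1.47, SSTR1 1.15, TMPRSS7 1.12, KCNA10 1.11, KCNMA1 1.09 and FAM70A 1.01. Smaller ones were SCNN1A 0.94, SLC7A5 0.93, KCND2 0.93, SLC7A1 0.77, KCNA1 0.58 and KCNB2 0.52. An upward change need not be a rise in treated samples. From early to late, mean FAM70A was 12.93 and 12.91 RPKM in treated samples and 22.9 and 10.6 RPKM in controls. Mean KCND2 was 3.07 and 1.73 RPKM against 3.10 and 0.380 RPKM. Treated means of KCNAB2 (0.904 and 2.24 RPKM) and CPE (6.81 and 12.8 RPKM) were higher late. Both TMPRSS13 (-0.78) and KCNA6 (-0.64) changed downward. No group held 4 or more samples, so single samples were not screened against their group.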

How the results depend on the processing

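The 7 control differences kept their direction under each of the alternatives run on them (245 values in all), between -2.86 (KCNAB1) and -0.76 (TMPRSS3). With the replicate block 6471 features changed in controls against 5971 without it. The block moved the counts of relatives and partners to 24 (all times), 30 (0 to 48 h), 12 (120 to 168 h) and 19 (difference between windows), and the count of changed marker genes to 78 (76 without it). Single calls it changed were those of SLC7A10 (0.23 over all times, ended) and ST14 (0.36 at 120 to 168 h, gained). A pseudocount of 0.1 made the treated minus control differences of the 7 genes larger, as for KCNAB1 at 0 to 48 h (-7.51) and SNCG over all times (-6.24), since most of their treated values lie below 1 RPKM. Without the lone control of 120 h the late differences were -3.35 (FAM70B), -2.63 (NELL1) and -1.74 (KCNAB1). No value changed sign among those called. Low treated values limit the precision of the shares left.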
